A study of Mus musculus with 27 samples.

Results

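The genes described here are 10 transporters that hepatocytes use to move bile acids, bile lipids, conjugates and drugs across their membranes. They were chosen by name as the rows of the count table whose Ensembl identifier carries 1 of 10 gene symbols in the GENCODE M21 annotation, and all 10 symbols were found among the 43346 genes of the table. All 10 passed the filter on low counts, which left 14482 genes for testing. RNA was sequenced from hepatocytes, the main cell type of the liver, isolated from female mice aged 12 weeks of 9 inbred strains, with 3 libraries per strain, 27 in all. The groups differ in strain alone, and no treatment is named for any of them. The reference strain is C57BL/6J, from which the mouse genome assembly was made. The remaining 8 are PWK/PhJ, CAST/EiJ and WSB/EiJ, which were derived from wild mice, and NZO/HlLtJ, A/J, 129S1/SvImJ, NOD/ShiLtJ and DBA/2J. No knockout or transgene is named either, and the labels call the libraries of a strain biological replicates. Since all mice were female and of 1 age, nothing here bears on males or on other ages.

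Bile acids are made from cholesterol in the hepatocyte, secreted into bile, reabsorbed in the intestine and taken up again by the liver from portal blood. Uptake runs through carriers of the SLC10 and SLCO families on the blood-facing (sinusoidal) membrane. Secretion into the bile canaliculus runs through ATP-driven pumps of the ABC family, and other ABC pumps send conjugates back to blood. The nuclear receptors FXR (Nr1h4), CAR (Nr1i3) and PXR (Nr1i2) are known regulators of many of these genes. Among the 10, Slc10a1 (NTCP), Slco1a1, Slco1a4 and Slco1b2 are uptake carriers. Abcb11 (the bile salt export pump), Abcb4 (the phosphatidylcholine floppase), Abcc2 (an exporter of conjugates) and Abcb1a (a P-glycoprotein, which exports many drugs) are canalicular pumps, and Abcc3 and Abcc6 are basolateral pumps.

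Library totals ran from 17015932 to 35078483 estimated counts, so that 1 count stood for 0.0253 to 0.0516 CPM, counts scaled to a common library size. Every library was most similar to another library of its own strain. Hepatocyte markers summed to between 101561 CPM in CAST/EiJ and 261679 CPM in A/J as strain means. The defining bile duct markers Krt7, Krt19, Epcam and Cftr were each at or below 0.574 CPM in every library. The other 3 genes of the bile duct list, Sox9, Spp1 and Slc10a2, reached 3.62, 6.36 and 25.6 CPM and were called among the strains, and the sum of all 7 averaged from 5.05 CPM in CAST/EiJ to 21.5 in DBA/2J. Kupffer cell (liver macrophage) markers were present and differed with strain, with all 7 of 7 called among the 9 strains. Of all genes tested 74.2% were called, of the hepatocyte markers 5 of 6 and of the stellate cell markers 4 of 7. The Kupffer cell sum averaged 194 CPM in C57BL/6J (163.9 to 216 over its libraries), 53.4 in NZO/HlLtJ (27.7 to 71.8) and 47.5 in 129S1/SvImJ (34.4 to 70.5). Liver endothelial markers, also called in 8 of 8, summed to 158 CPM in C57BL/6J (119 to 213), 55.8 in NZO/HlLtJ (43.5 to 73.8) and 293 in PWK/PhJ (159.7 to 532).

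Members of the SLCO1A and ABCB families are close relatives that lie beside each other in the genome, so sequence similarity bears on how their reads could be counted. Slco1a1 and Slco1a4 lie in tandem on chromosome 6, and their coding sequences were 86.7% identical over aligned bases. Abcb1a, Abcb1b and Abcb4 lie within 1 stretch of chromosome 5. Abcb1a and Abcb1b, the rodent pair that corresponds to a single human P-glycoprotein gene, were 88.0% identical, and Abcb1a and Abcb4 were 75.0% identical. The stretches of 60 coding bases printed here come from the GENCODE transcripts, with the bases that differ between the 2 genes of a pair in capitals. Each is the start of the longest alignment block without a gap, and both are more divergent than their whole coding sequences, so they show where the 2 genes of a pair differ and not how far they differ on average. The Abcb1 stretches start at coding base 1980 of Abcb1a and 1986 of Abcb1b and differ at 20 bases, and the Slco1a stretches are coding bases 1 to 60 and differ at 13.
Abcb1a: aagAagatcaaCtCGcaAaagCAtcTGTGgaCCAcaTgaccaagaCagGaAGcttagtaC
Abcb1b: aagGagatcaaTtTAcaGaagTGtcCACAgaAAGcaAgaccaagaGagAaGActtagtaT
Slco1a1: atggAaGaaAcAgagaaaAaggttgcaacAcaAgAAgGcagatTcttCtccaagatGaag
Slco1a4: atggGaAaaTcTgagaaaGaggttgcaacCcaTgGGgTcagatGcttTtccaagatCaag

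Of all 50-base windows in the transcripts of Abcb1a, 22.5% also occurred in transcripts of another gene, most often of Abcb1b (889 windows), the gene model Gm42686 (457) and Abcb4 (127). The share was 12.8% for Abcb1b, 2.87% for Abcb4, 1.64% for Slco1a1 and 1.61% for Slco1a4. It was 1.68% for Abcb11, 0.957% for Slc10a1, 0.154% for Abcc2 and 0 for Slco1b2, Abcc3 and Abcc6. Counts of Abcb1a and Abcb1b are therefore the least certain of these, since the counting could divide reads between genes. Values that were not whole numbers stood in all 27 libraries for Abcb1a, Abcb4 and Slco1a4 and in none for Slc10a1, Slco1b2, Abcc2, Abcc3 and Abcc6.

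Promoter sequences from RefSeq, on build GRCm38.p6, matched 8 of the 10 genes. The entry for Abcb1a lies 92986 bases from the gene start in GENCODE and was left aside. The windows of the remaining 7 genes were searched on both strands, over the 250 bases before the start site, for AGGTCA, the half-site that many nuclear receptors bind. The half-site occurred in 14.0% of the 32851 promoters in the table. It was found before Abcb11, Abcc2, Slco1b2, Slco1a1 and 1 of the 2 listed starts of Slc10a1, and was not among the letters of the Slco1a4 and Abcb4 windows. The inverted repeat IR1 to which FXR binds, a pair of half-sites facing each other 1 base apart, was searched as exact letters only. With no mismatch allowed, it occurred in 2 of all promoters and in none of these. The Abcb11 window does hold an inexact copy, made of its half-site and a facing half-site with 1 letter changed. Inexact copies were not searched for, so their absence from the other windows was not tested. Printed here are the windows of both tandem carriers, whose strain orders differ, and of the bile salt pump and Abcc2, with the half-site in capitals on either strand. No binding or chromatin data are used here, so the matches are descriptions of the letters alone.
Abcb11 (chr2:69342617-69342866, reverse strand): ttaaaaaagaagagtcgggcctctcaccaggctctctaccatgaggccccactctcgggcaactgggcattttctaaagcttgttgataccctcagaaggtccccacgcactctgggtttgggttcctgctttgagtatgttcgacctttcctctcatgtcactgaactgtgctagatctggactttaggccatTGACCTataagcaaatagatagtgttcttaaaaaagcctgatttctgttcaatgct
Abcc2 (chr19:43782058-43782307, forward strand): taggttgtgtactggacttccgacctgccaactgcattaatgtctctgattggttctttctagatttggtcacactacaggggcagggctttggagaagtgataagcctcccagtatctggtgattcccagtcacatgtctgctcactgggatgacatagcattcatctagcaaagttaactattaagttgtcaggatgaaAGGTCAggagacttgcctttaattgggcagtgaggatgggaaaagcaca
Slco1a1 (chr6:141946963-141947212, reverse strand): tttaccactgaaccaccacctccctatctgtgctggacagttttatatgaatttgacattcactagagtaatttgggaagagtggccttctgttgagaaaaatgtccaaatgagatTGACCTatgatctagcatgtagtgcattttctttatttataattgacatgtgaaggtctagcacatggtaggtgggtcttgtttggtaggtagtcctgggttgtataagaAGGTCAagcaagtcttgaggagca
Slco1a4 (chr6:141856221-141856470, reverse strand): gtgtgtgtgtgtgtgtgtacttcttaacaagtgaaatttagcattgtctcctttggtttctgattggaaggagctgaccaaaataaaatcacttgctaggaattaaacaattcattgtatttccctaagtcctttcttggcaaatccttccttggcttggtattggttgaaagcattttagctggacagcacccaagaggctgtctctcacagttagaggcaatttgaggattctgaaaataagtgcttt

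In the Abcb11 window the half-site lay 56 to 51 bases before the start, and in that of Abcc2 49 to 44 bases before it. Abcc2 also held the antioxidant response core TGACNNNGC, which occurred in 10.2% of all promoters, at 98 to 90 bases before the start. Slco1a1 held half-sites at 134 to 129 and at 24 to 19 bases before its start.

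All 10 transporters differed among the 9 strains at an adjusted p under 0.05 in edgeR's quasi-likelihood test with Benjamini-Hochberg adjustment over all genes. The adjusted p ran from 2.94e-12 for Abcb1a to 0.00172 for Slco1b2. The count of 10 has to be read against the background, since 74.2% of all genes tested were called. The ratio of the highest to the lowest strain mean had a median of 3.15 over the transporters and 2.27 over all genes tested, and it reached 2-fold in 90% of the transporters and 58.3% of all genes. Differences between strains made up a median of 80.2% of the variance of log2 CPM of a transporter, against 66.6% for all genes. These are descriptions of a list chosen by name, with earlier results of these data known, and the list itself was not tested. All genes tested include genes of lower level than any of the transporters, and the 2 sides were not matched for level. In RNA from whole isolates, fewer cells of a type and less RNA per cell cannot be told apart.

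Compared per kilobase of exon, the scale on which levels of different genes can be set side by side, Slc10a1 was highest at a mean of 399 CPM per kb over the strains. Abcb11 followed at 219.7 CPM per kb and Slco1b2 at 208. Abcc3 had 82.6, Abcc2 54.7, Abcc6 47.2, Slco1a1 36.7, Abcb4 32.2 and Slco1a4 21.9 CPM per kb. Abcb1a was lowest, at 3.4. All other levels below are in CPM, without division by length, and are compared only between strains for 1 gene. Levels written with ± are means and SDs over the 3 libraries of a strain (n = 3), and log2 fold changes are against C57BL/6J with their SE.

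**Figure D1:**
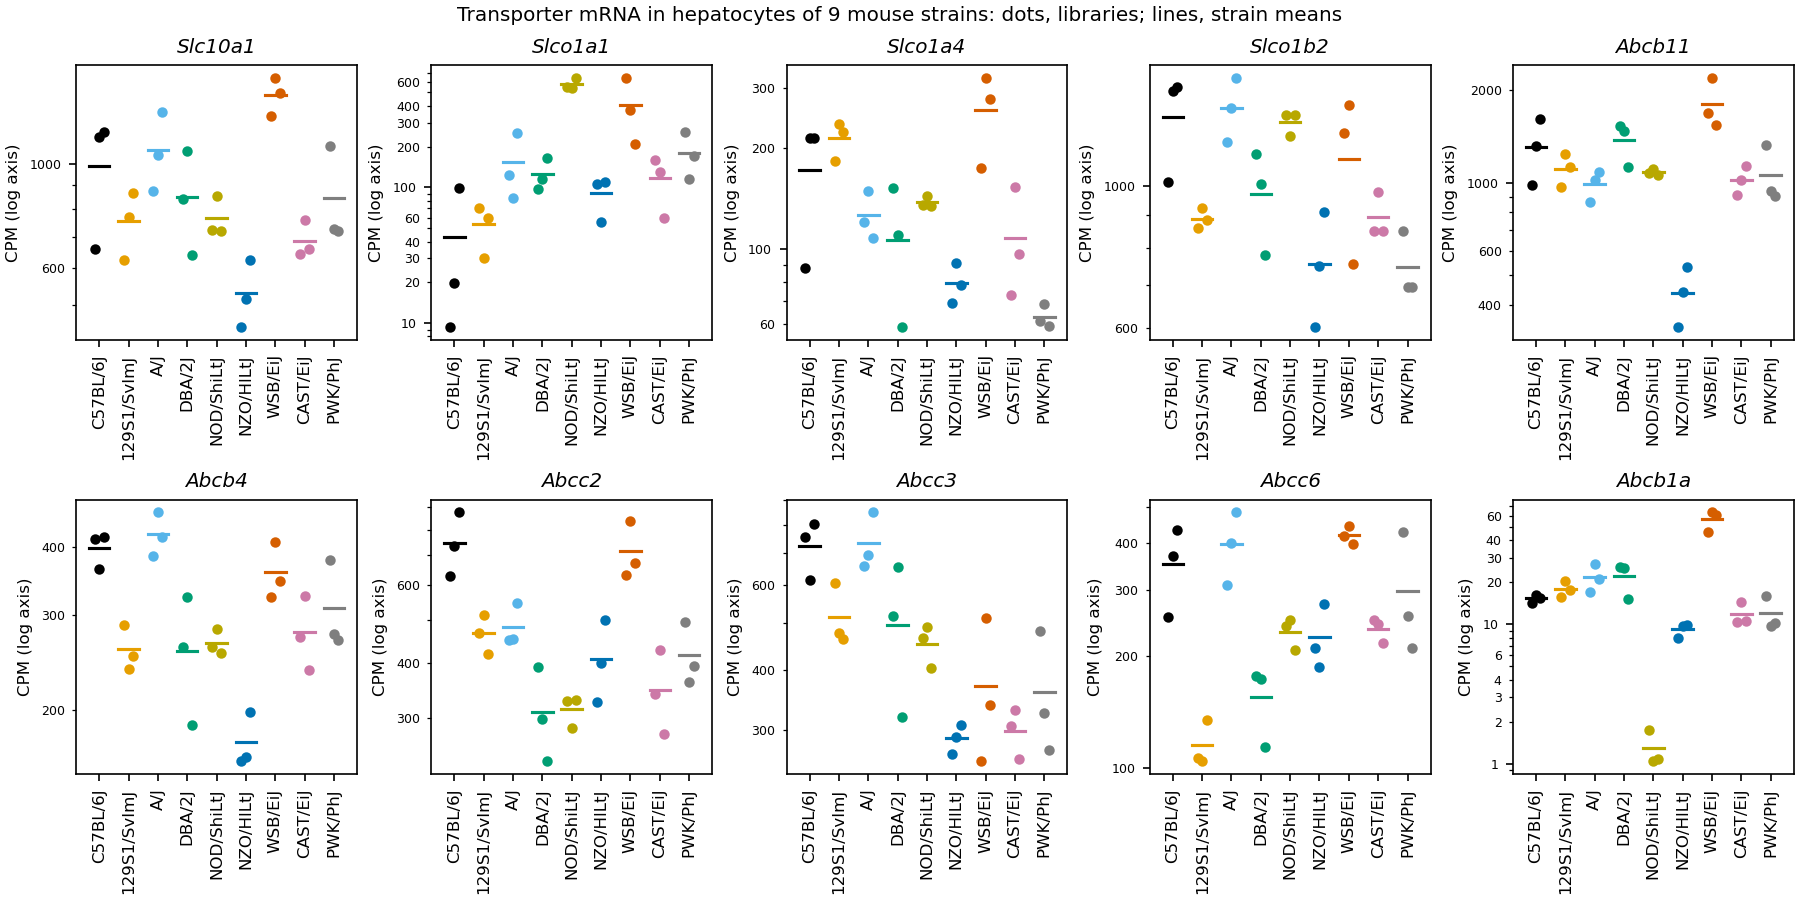
Level of each of the 10 transporters in each of the 27 libraries, in CPM on a log axis, with 1 panel per gene; points are libraries and horizontal lines are the means of 3 libraries per strain. Abcb1a in NOD/ShiLtJ lies below every other library, and Abcb11 in NZO/HlLtJ lies below every other library.

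WSB/EiJ had the highest mean of 5 transporters (Slc10a1, Slco1a4, Abcb11, Abcc6 and Abcb1a) and A/J of 3 (Slco1b2, Abcb4 and Abcc3). NZO/HlLtJ had the lowest mean of 4 (Slc10a1, Abcb11, Abcb4 and Abcc3). Set against each gene's geometric mean over the strains, the median transporter stood at 0.74 on the log2 scale in WSB/EiJ and at -0.63 in NZO/HlLtJ. C57BL/6J followed WSB/EiJ at 0.39 and A/J at 0.37, and the remaining 5 strains stood between -0.21 and -0.05. In NZO/HlLtJ and in CAST/EiJ all 10 transporters were below their geometric means, against 1 of 10 in C57BL/6J and in WSB/EiJ. None of these ranks, medians and counts was computed over all genes tested, so no background stands beside them. The hepatocyte marker sums were also lowest in CAST/EiJ and NZO/HlLtJ and highest in A/J and WSB/EiJ. The TMM factors, which scale library sizes, differed with strain, and a larger factor gives a lower CPM for the same counts and total. They ran from 1.16 to 1.23 in NZO/HlLtJ, 1.14 to 1.16 in CAST/EiJ and 0.85 to 1.02 in C57BL/6J. In A/J they ran from 0.72 to 0.90 and in WSB/EiJ from 0.78 to 0.83. In 129S1/SvImJ, whose median transporter stood at -0.06, they ran from 1.07 to 1.19. Transporter levels without these factors were not compared.

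**Figure D2:**
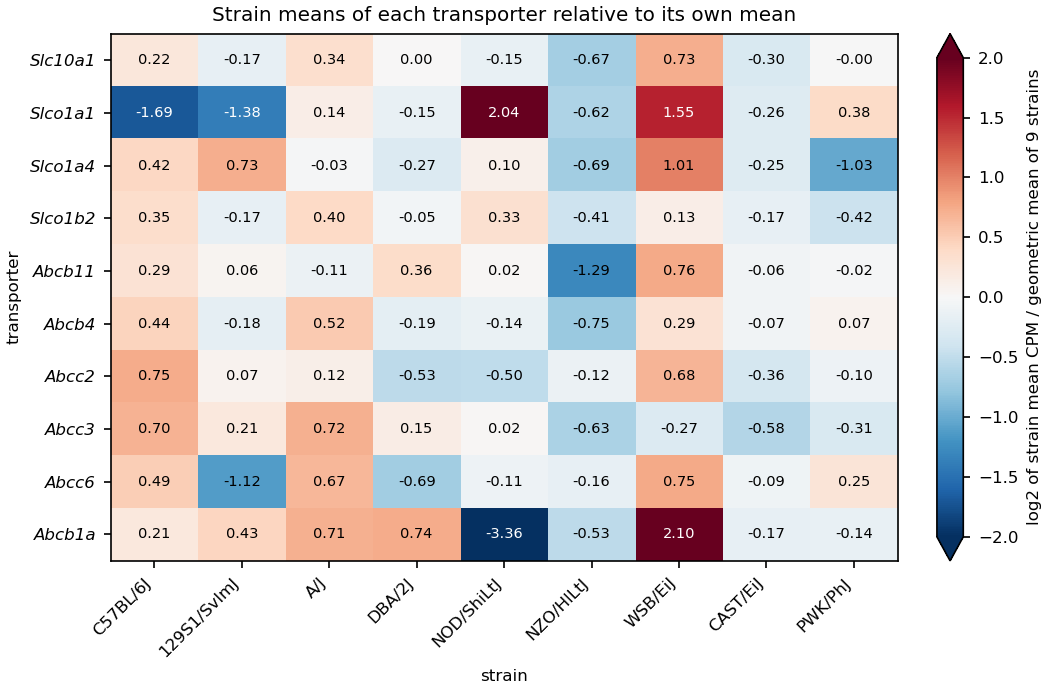
Log2 of each strain's mean CPM over the gene's geometric mean across the 9 strains, with transporters in rows and strains in columns; color and the printed number give the log2 value, with colors saturating at 2 and -2. The median over the column of WSB/EiJ is 0.74 and over that of NZO/HlLtJ -0.63, and Abcb1a and Slco1a1 carry the widest ranges.

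Slc10a1 (ENSMUSG00000021135, chr12:80953183-80968705, reverse strand), the sodium-dependent carrier that takes up most conjugated bile acids from portal blood, was highest in WSB/EiJ and lowest in NZO/HlLtJ, a ratio of 2.64. Its levels were 1263, 1525 and 1416 CPM in WSB/EiJ, 877, 1044 and 1289 in A/J, and 659, 1142 and 1167 in C57BL/6J. In the strains between, they were 841, 1066 and 639 CPM in DBA/2J, 1091, 726 and 719.9 in PWK/PhJ, and 722, 854 and 720.4 in NOD/ShiLtJ. The lowest levels were 624, 772 and 868 CPM in 129S1/SvImJ, 643, 759.9 and 658 in CAST/EiJ, and 449, 517 and 625 in NZO/HlLtJ. All NZO/HlLtJ libraries lay below every library of every other strain except 1 of 129S1/SvImJ. The lowest C57BL/6J library lay within the range of CAST/EiJ, apart from the other 2 of its strain. The only strain called against C57BL/6J was NZO/HlLtJ (edgeR log2 fold change -0.90 ± 0.23, adjusted p = 0.00527). WSB/EiJ, although highest, was not called (log2 fold change 0.50 ± 0.23, adjusted p = 0.155), but was at 0.80 (adjusted p = 0.00399) with the mean levels of the Kupffer cell and endothelial markers as covariates. Along the order of strain means, the only neighbours whose libraries did not overlap were CAST/EiJ and NZO/HlLtJ.

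Slco1b2 (ENSMUSG00000030236, chr6:141629518-141686646, forward strand), the liver's main SLCO carrier for unconjugated bile acids, bilirubin and many drugs, varied least, with a ratio of 1.77 between A/J and PWK/PhJ. Strain means ran from 747 ± 89.2 CPM in PWK/PhJ and 754 ± 154 in NZO/HlLtJ to 1279.6 ± 230.0 in C57BL/6J and 1320.0 ± 150.5 in A/J. Between these lay 889 ± 33.2 CPM in 129S1/SvImJ, 892 ± 74.4 in CAST/EiJ, 969 ± 172 in DBA/2J, 1099 ± 304 in WSB/EiJ and 1256 ± 52.9 in NOD/ShiLtJ. No 2 neighbours in the order were free of overlap. It was called lower than in C57BL/6J in 3 strains by edgeR, PWK/PhJ (log2 fold change -0.78 ± 0.20, adjusted p = 0.00468), NZO/HlLtJ (log2 fold change -0.76 ± 0.20, adjusted p = 0.00631) and CAST/EiJ (log2 fold change -0.52 ± 0.20, adjusted p = 0.0396). The CAST/EiJ call was lost without C57BL/6J replicate 2 (adjusted p = 0.128), C57BL/6J replicate 4 (adjusted p = 0.144), CAST/EiJ replicate 1 (adjusted p = 0.111), CAST/EiJ replicate 5 (adjusted p = 0.106) or NOD/ShiLtJ replicate 2 (adjusted p = 0.0505). The log2 fold change in 129S1/SvImJ was of the same size, at -0.53 ± 0.20 (adjusted p = 0.0578) by edgeR, and DESeq2 called it (-0.55, adjusted p = 0.0251).

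Slco1a1 (ENSMUSG00000041698, chr6:141907282-141946962, reverse strand), a sodium-independent carrier of organic anions and steroid conjugates known for higher levels in male than in female mouse liver, had the widest range of the uptake carriers, 13.4-fold between strain means. NOD/ShiLtJ and WSB/EiJ were highest, and C57BL/6J was lowest. Its levels were 545, 535 and 641 CPM in NOD/ShiLtJ, 637, 372 and 210.0 in WSB/EiJ, and 255, 115 and 171 in PWK/PhJ. They were 123, 83.2 and 253 CPM in A/J, 97, 115 and 165 in DBA/2J, and 159, 131 and 59.1 in CAST/EiJ. The lowest levels were 105, 55.9 and 109.7 CPM in NZO/HlLtJ, 71.1, 30 and 59.4 in 129S1/SvImJ, and 9.37, 20 and 99.6 in C57BL/6J. The NOD/ShiLtJ libraries stood close together at the top, and only 1 WSB/EiJ library reached that range. The 3 C57BL/6J libraries were themselves far apart, so each fold against this strain rests on a reference of wide spread. By edgeR, Slco1a1 was higher than in C57BL/6J in NOD/ShiLtJ (log2 fold change 3.74 ± 0.65, adjusted p = 0.000224), WSB/EiJ (log2 fold change 3.24 ± 0.64, adjusted p = 0.00071) and PWK/PhJ (log2 fold change 2.07 ± 0.61, adjusted p = 0.0132). Over fits that each left out 1 library, the log2 fold change lay between 3.26 and 5.29 in NOD/ShiLtJ and between 2.76 and 4.79 in WSB/EiJ, both highest without C57BL/6J replicate 4. The PWK/PhJ call was lost without C57BL/6J replicate 1 (adjusted p = 0.0507) or C57BL/6J replicate 2 (adjusted p = 0.0728).

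Slco1a4 (ENSMUSG00000030237, chr6:141805440-141856199, reverse strand), a carrier of organic anions and cardiac glycosides, had another order of strains than its tandem neighbour. Its levels were 175, 323 and 279 CPM in WSB/EiJ, 183, 235 and 222 in 129S1/SvImJ, and 87.6, 214 and 214 in C57BL/6J. They were 135, 144 and 134 CPM in NOD/ShiLtJ, 121, 149 and 108 in A/J, and 73.2, 153 and 96.5 in CAST/EiJ. The lowest were 151, 109.8 and 58.7 CPM in DBA/2J, 69, 91.2 and 78.2 in NZO/HlLtJ, and 61.1, 68.6 and 59.3 in PWK/PhJ. PWK/PhJ had the lowest mean and was free of overlap with NZO/HlLtJ, its neighbour in the order. Even so, 1 DBA/2J library (58.7 CPM) lay below all those of PWK/PhJ, and 1 C57BL/6J library lay as low as those of NZO/HlLtJ. Slco1a4 was lower than in C57BL/6J in PWK/PhJ (edgeR log2 fold change -1.45 ± 0.32, adjusted p = 0.00131) and in NZO/HlLtJ (edgeR log2 fold change -1.11 ± 0.31, adjusted p = 0.0112). The NZO/HlLtJ call was lost without C57BL/6J replicate 2 (adjusted p = 0.0595), C57BL/6J replicate 4 (adjusted p = 0.0679) or NZO/HlLtJ replicate 1 (adjusted p = 0.0536).

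The log2 ratio of Slco1a1 to Slco1a4 within a library averaged 2.05 ± 0.18 in NOD/ShiLtJ and 1.45 ± 0.66 in PWK/PhJ, against -2.58 ± 1.28 in C57BL/6J and -2.08 ± 0.81 in 129S1/SvImJ (SD, n = 3). It is a ratio of CPM without division by length. In the other 5 strains the mean ratio lay between 0.06 and 0.55. Across the 27 libraries, which share 9 strains, log2 CPM of the 2 genes had a Pearson correlation of 0.01, given as a description.

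**Figure D3:**
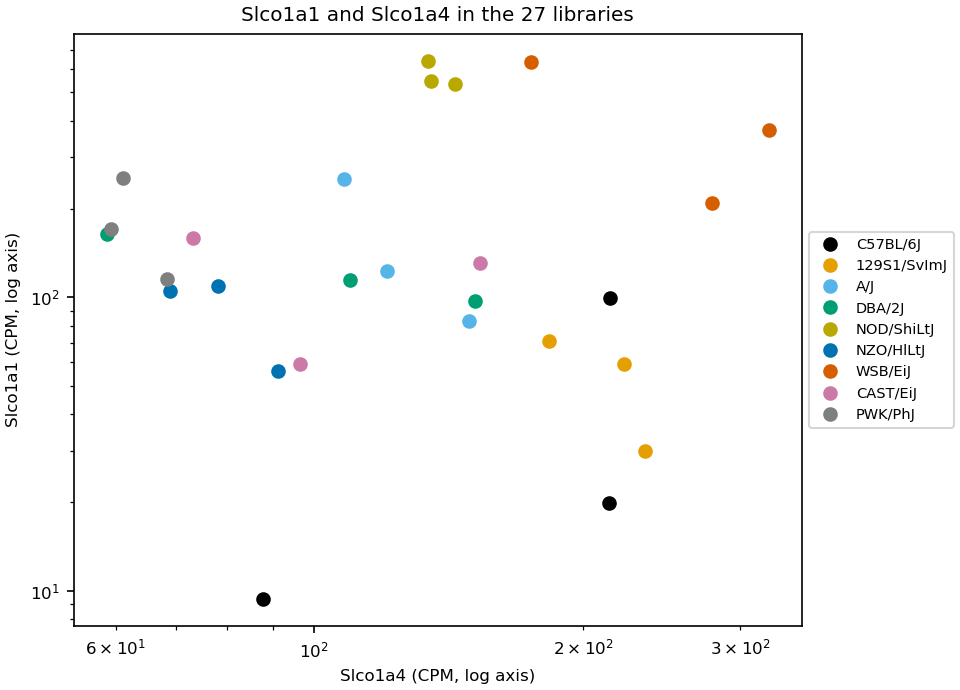
Slco1a1 level (vertical) against Slco1a4 level (horizontal) in CPM, both on log axes; each point is 1 of 27 libraries and colors mark the 9 strains. NOD/ShiLtJ libraries stand at 535 to 641 CPM of Slco1a1 with 134 to 144 CPM of Slco1a4, and C57BL/6J libraries at 9.37 to 99.6 CPM of Slco1a1.

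Abcb11 (ENSMUSG00000027048, chr2:69238282-69342616, reverse strand) pumps bile salts into the canaliculus and is the main driver of bile flow. It was highest in WSB/EiJ and lowest in NZO/HlLtJ, a ratio of 4.13. Its levels were 1679, 2192 and 1539.8 CPM in WSB/EiJ, 1527, 1468 and 1127 in DBA/2J, and 985, 1319 and 1609.7 in C57BL/6J. They were 969, 1237 and 1124 CPM in 129S1/SvImJ, 1077, 1109 and 1059 in NOD/ShiLtJ, and 1320.2, 936 and 907 in PWK/PhJ. The lowest were 910.0, 1020.3 and 1135 CPM in CAST/EiJ, 867, 1017 and 1081 in A/J, and 339, 440.2 and 532 in NZO/HlLtJ. Along the order, the 7 strains in the middle overlapped one another, and all 3 NZO/HlLtJ libraries lay below every other library. All 3 WSB/EiJ libraries lay above all DBA/2J libraries, but 1 C57BL/6J library (1609.7 CPM) lay above the lowest of WSB/EiJ (1539.8 CPM). NZO/HlLtJ was the only strain called against C57BL/6J (edgeR log2 fold change -1.58 ± 0.21, adjusted p = 5.58e-06), and the call held in every fit that left out 1 library. With the Kupffer cell and endothelial marker levels as covariates the log2 fold change was -1.17 (adjusted p = 0.000285). WSB/EiJ was not called (log2 fold change 0.47 ± 0.20, adjusted p = 0.141), but was called higher with these covariates, at 0.67 (adjusted p = 0.00758), and PWK/PhJ was called lower, at -0.66 (adjusted p = 0.0152).

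Abcb4 (ENSMUSG00000042476, chr5:8893717-8959231, forward strand) flops phosphatidylcholine into bile, where it protects the ducts from bile salts. It was highest in A/J and C57BL/6J and lowest in NZO/HlLtJ. Its levels were 385, 464 and 416 CPM in A/J, 413, 365 and 417 in C57BL/6J, and 323, 409 and 346 in WSB/EiJ. They were 378, 276 and 269.8 CPM in PWK/PhJ, 273, 325 and 237 in CAST/EiJ, and 262, 282 and 255 in NOD/ShiLtJ. The lowest were 287, 238 and 252 CPM in 129S1/SvImJ, 261, 323 and 188 in DBA/2J, and 161, 164 and 198 in NZO/HlLtJ. No neighbours in the order were free of overlap, although the NZO/HlLtJ libraries overlapped only 1 library of another strain, in DBA/2J. Against C57BL/6J it was lower in 5 strains by edgeR, most in NZO/HlLtJ (log2 fold change -1.19 ± 0.18, adjusted p = 3.02e-05). The other 4 log2 fold changes were -0.63 in DBA/2J (adjusted p = 0.0224), -0.62 in 129S1/SvImJ (adjusted p = 0.0158), -0.58 in NOD/ShiLtJ (adjusted p = 0.0267) and -0.52 in CAST/EiJ (adjusted p = 0.0235). Each of those 4 calls was lost when any of several libraries was left out. The DBA/2J call was lost without C57BL/6J replicate 1 (adjusted p = 0.0604), C57BL/6J replicate 4 (adjusted p = 0.0775), DBA/2J replicate 2 (adjusted p = 0.0593) or DBA/2J replicate 4 (adjusted p = 0.155). The 129S1/SvImJ call was lost without C57BL/6J replicate 4 (adjusted p = 0.0622) or 129S1/SvImJ replicate 2 (adjusted p = 0.0719). The NOD/ShiLtJ call was lost without C57BL/6J replicate 4 (adjusted p = 0.0919), NOD/ShiLtJ replicate 1 (adjusted p = 0.0769), NOD/ShiLtJ replicate 2 (adjusted p = 0.0535) or NOD/ShiLtJ replicate 3 (adjusted p = 0.0922), and the CAST/EiJ call without C57BL/6J replicate 1 (adjusted p = 0.0516), C57BL/6J replicate 4 (adjusted p = 0.0733), CAST/EiJ replicate 1 (adjusted p = 0.0678) or CAST/EiJ replicate 5 (adjusted p = 0.113).

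Abcc2 (ENSMUSG00000025194, chr19:43782192-43840740, forward strand) exports bilirubin glucuronides, glutathione conjugates and drug conjugates into bile. C57BL/6J and WSB/EiJ formed the top of its order and DBA/2J and NOD/ShiLtJ the bottom. Its levels were 628, 735 and 878 CPM in C57BL/6J, 633, 839 and 672 in WSB/EiJ, and 449, 453 and 545 in A/J. They were 468, 512 and 418 CPM in 129S1/SvImJ, 494, 361 and 392 in PWK/PhJ, and 326, 399 and 500.0 in NZO/HlLtJ. The lowest were 339, 427 and 276 CPM in CAST/EiJ, 328, 284 and 329 in NOD/ShiLtJ, and 390.3, 298 and 239 in DBA/2J. Every C57BL/6J and WSB/EiJ library lay above every library of the other 7 strains. It was lower than in C57BL/6J in 6 strains by edgeR, the most of any of the 10. The log2 fold changes were -1.27 in DBA/2J (adjusted p = 8.61e-05), -1.25 in NOD/ShiLtJ (adjusted p = 0.000101), -1.11 in CAST/EiJ (adjusted p = 0.000146), -0.87 in NZO/HlLtJ (adjusted p = 0.00281), -0.85 in PWK/PhJ (adjusted p = 0.00278) and -0.68 in 129S1/SvImJ (adjusted p = 0.0194). The 129S1/SvImJ call was lost without C57BL/6J replicate 4 (adjusted p = 0.119), 129S1/SvImJ replicate 1 (adjusted p = 0.0578) or 129S1/SvImJ replicate 3 (adjusted p = 0.0688). A/J just missed the threshold (log2 fold change -0.63 ± 0.20, adjusted p = 0.0546), and the log2 fold change was -0.06 in WSB/EiJ (adjusted p = 0.891).

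Abcb1a (ENSMUSG00000040584, chr5:8660077-8748575, forward strand), which pumps drugs and other hydrophobic compounds out of cells, varied most of the 10, with a ratio of 43.8 between WSB/EiJ and NOD/ShiLtJ and an omnibus adjusted p of 2.94e-12 in edgeR. Its levels were 45.7, 63.7 and 60.4 CPM in WSB/EiJ, 25.8, 25.3 and 15.2 in DBA/2J, and 16.9, 27 and 21.1 in A/J. They were 15.7, 20.3 and 17.5 CPM in 129S1/SvImJ, 14.2, 16.2 and 15.5 in C57BL/6J, and 16, 9.76 and 10.2 in PWK/PhJ. The lowest were 10.4, 14.4 and 10.5 CPM in CAST/EiJ, 7.9, 9.72 and 9.91 in NZO/HlLtJ, and 1.75, 1.04 and 1.08 in NOD/ShiLtJ. The 3 NOD/ShiLtJ libraries, with 30 to 54 counts each, lay far below the rest, and the 3 WSB/EiJ libraries lay above every other library. Relative to C57BL/6J, at 15.3 ± 1.05 CPM, NOD/ShiLtJ at 1.29 ± 0.401 CPM was 11.8-fold lower (edgeR log2 fold change -3.56 ± 0.27, adjusted p = 4.44e-10) and WSB/EiJ at 56.6 ± 9.55 CPM was 3.7-fold higher (edgeR log2 fold change 1.89 ± 0.23, adjusted p = 1.21e-06). Both calls held with those marker levels as covariates, at -3.18 (adjusted p = 2.83e-09) and 2.28 (adjusted p = 3.05e-08), and Abcb1a was then also called higher in DBA/2J, at 0.95 (adjusted p = 0.00421), and in A/J, at 0.62 (adjusted p = 0.0284). A smaller decrease in NZO/HlLtJ (log2 fold change -0.74 ± 0.23, adjusted p = 0.0184) was lost without C57BL/6J replicate 2 (adjusted p = 0.0593), C57BL/6J replicate 4 (adjusted p = 0.0556) or NZO/HlLtJ replicate 1 (adjusted p = 0.0854).

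Abcb1b (ENSMUSG00000028970, chr5:8798147-8866315, forward strand), the paralog that mouse liver is known to induce under stress, was low in most strains and differed among them (edgeR adjusted p = 6.71e-14). It averaged 11 ± 2.08 CPM in NZO/HlLtJ, 8.06 ± 1.35 in 129S1/SvImJ, 4.85 ± 1.56 in CAST/EiJ and 2.68 ± 0.681 in WSB/EiJ. In C57BL/6J it had 3 to 7 counts per library, while in A/J (0 to 3 counts) and NOD/ShiLtJ (0 to 2 counts) it lay at or under the floor of 3 counts. Of the summed level of both genes, Abcb1b made up 54.5% in NZO/HlLtJ, 31.1% in 129S1/SvImJ, 29.1% in CAST/EiJ and at most 4.6% in each other strain. The sum was 1.32 ± 0.428 CPM in NOD/ShiLtJ, 15.5 in C57BL/6J, 20.2 ± 2.92 in NZO/HlLtJ, 25.9 ± 2.81 in 129S1/SvImJ and 59.3 ± 9.55 in WSB/EiJ (SD, n = 3). NOD/ShiLtJ was lowest and WSB/EiJ highest on the sum as well, whereas NZO/HlLtJ was above C57BL/6J on the sum and below it on Abcb1a alone. The sum does not hold reads that Abcb1a could share with Gm42686 or Abcb4, and the part of read division in these differences was not tested.

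**Figure D4:**
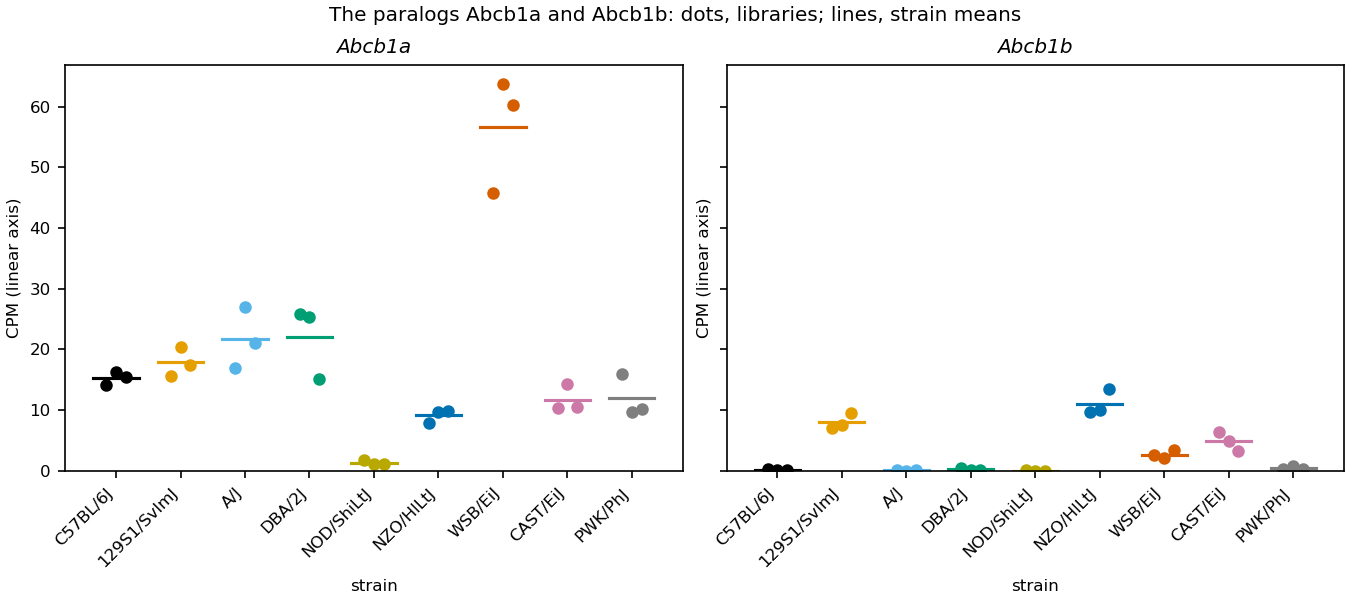
Levels of Abcb1a (left) and Abcb1b (right) by strain, in CPM on 1 shared linear axis from 0; points are single libraries and horizontal lines the means of 3. Abcb1a averages 56.6 CPM in WSB/EiJ and 1.29 in NOD/ShiLtJ, while Abcb1b is highest in NZO/HlLtJ at 11 CPM.

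Abcc3 (ENSMUSG00000020865, chr11:94343295-94392997, reverse strand) sends glucuronides and some bile acids back across the basolateral membrane into blood. A/J and C57BL/6J were highest. Its levels were 657, 691 and 850.1 CPM in A/J, 755, 613 and 802 in C57BL/6J, and 604, 477 and 462 in 129S1/SvImJ. They were 516, 653 and 318 CPM in DBA/2J, 465, 490.1 and 404 in NOD/ShiLtJ, and 258, 513 and 338 in WSB/EiJ. The lowest were 481, 325 and 272 CPM in PWK/PhJ, 305, 330.1 and 261 in CAST/EiJ, and 267, 290.2 and 306 in NZO/HlLtJ. All C57BL/6J libraries lay above all 129S1/SvImJ libraries, the next strain in the order, and the DBA/2J libraries ran from the range of C57BL/6J down to that of CAST/EiJ. It was lower than in C57BL/6J in 4 strains by edgeR, at log2 fold changes of -1.33 in NZO/HlLtJ (adjusted p = 0.000395), -1.28 in CAST/EiJ (adjusted p = 0.000268), -1.01 in PWK/PhJ (adjusted p = 0.00335) and -0.97 in WSB/EiJ (adjusted p = 0.00773). WSB/EiJ, the strain with the highest mean of 5 other transporters, was thus below C57BL/6J for Abcc3, a call lost without WSB/EiJ replicate 2 (adjusted p = 0.0606).

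Abcc6 (ENSMUSG00000030834, chr7:45967555-46030302, reverse strand), known for its part in ATP release from hepatocytes and in preventing calcification of soft tissue, was lowest in 129S1/SvImJ and DBA/2J. Its levels were 419, 446 and 399 CPM in WSB/EiJ, 309, 401 and 485 in A/J, and 254, 369.7 and 434 in C57BL/6J. They were 428, 256 and 209.8 CPM in PWK/PhJ, 249, 243 and 216 in CAST/EiJ, and 239, 249 and 207 in NOD/ShiLtJ. The lowest were 209.7, 187 and 275 CPM in NZO/HlLtJ, 177, 174 and 114 in DBA/2J, and 106, 104 and 135 in 129S1/SvImJ. All DBA/2J libraries lay below all NZO/HlLtJ libraries, the next strain above, and the 129S1/SvImJ libraries overlapped DBA/2J only. Abcc6 was lower than in C57BL/6J in 129S1/SvImJ (edgeR log2 fold change -1.62 ± 0.24, adjusted p = 3.41e-05) and DBA/2J (edgeR log2 fold change -1.19 ± 0.24, adjusted p = 0.0013), and both calls held in every alternative fit tried. A further decrease, in NZO/HlLtJ (log2 fold change -0.66 ± 0.24, adjusted p = 0.0396), was lost without C57BL/6J replicate 2 (adjusted p = 0.104), C57BL/6J replicate 4 (adjusted p = 0.208), NZO/HlLtJ replicate 1 (adjusted p = 0.118), NZO/HlLtJ replicate 2 (adjusted p = 0.158), WSB/EiJ replicate 3 (adjusted p = 0.0508) or NOD/ShiLtJ replicate 2 (adjusted p = 0.0514).

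Counted by strain, NZO/HlLtJ had 9 of 10 transporters lower than C57BL/6J, against 16.2% of all genes lower and 13.2% higher. Slco1a1 was the exception. The median log2 fold change of the 10 in NZO/HlLtJ was -0.89, while the median over all genes lay between -0.02 and 0.01 in the 8 comparisons. CAST/EiJ had 4 lower and 0 higher (19.7% and 18.4% of all genes), PWK/PhJ 4 lower and 1 higher (13.7% and 12.5%), and NOD/ShiLtJ 3 lower and 1 higher (8.51% and 7.39%). In 129S1/SvImJ 3 were lower and 0 higher (11.7% and 9.2%), and in DBA/2J 3 were lower and 0 higher (4.16% and 4.9%). WSB/EiJ had 1 lower and 2 higher (6.76% and 6.88%). In A/J none was called by edgeR, against 4.03% of all genes lower and 3.81% higher. At an unadjusted p under 0.05 edgeR gave 3 in A/J, where 19.3% of all genes passed. DESeq2 called 2 after adjustment, against 9.46% of all genes, Slco1a1 at a log2 fold change of 1.83 (adjusted p = 0.0455) and Abcc2 at a log2 fold change of -0.63 (adjusted p = 0.0231). Medians were 0.36 in WSB/EiJ, 0.06 in A/J and between -0.52 and -0.36 in the remaining 5. The 8 comparisons share the same 3 C57BL/6J libraries, so their directions are not independent: of 80 fold changes, 27 were called lower and 4 higher, and a high or low C57BL/6J level enters all 8.

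**Figure D5:**
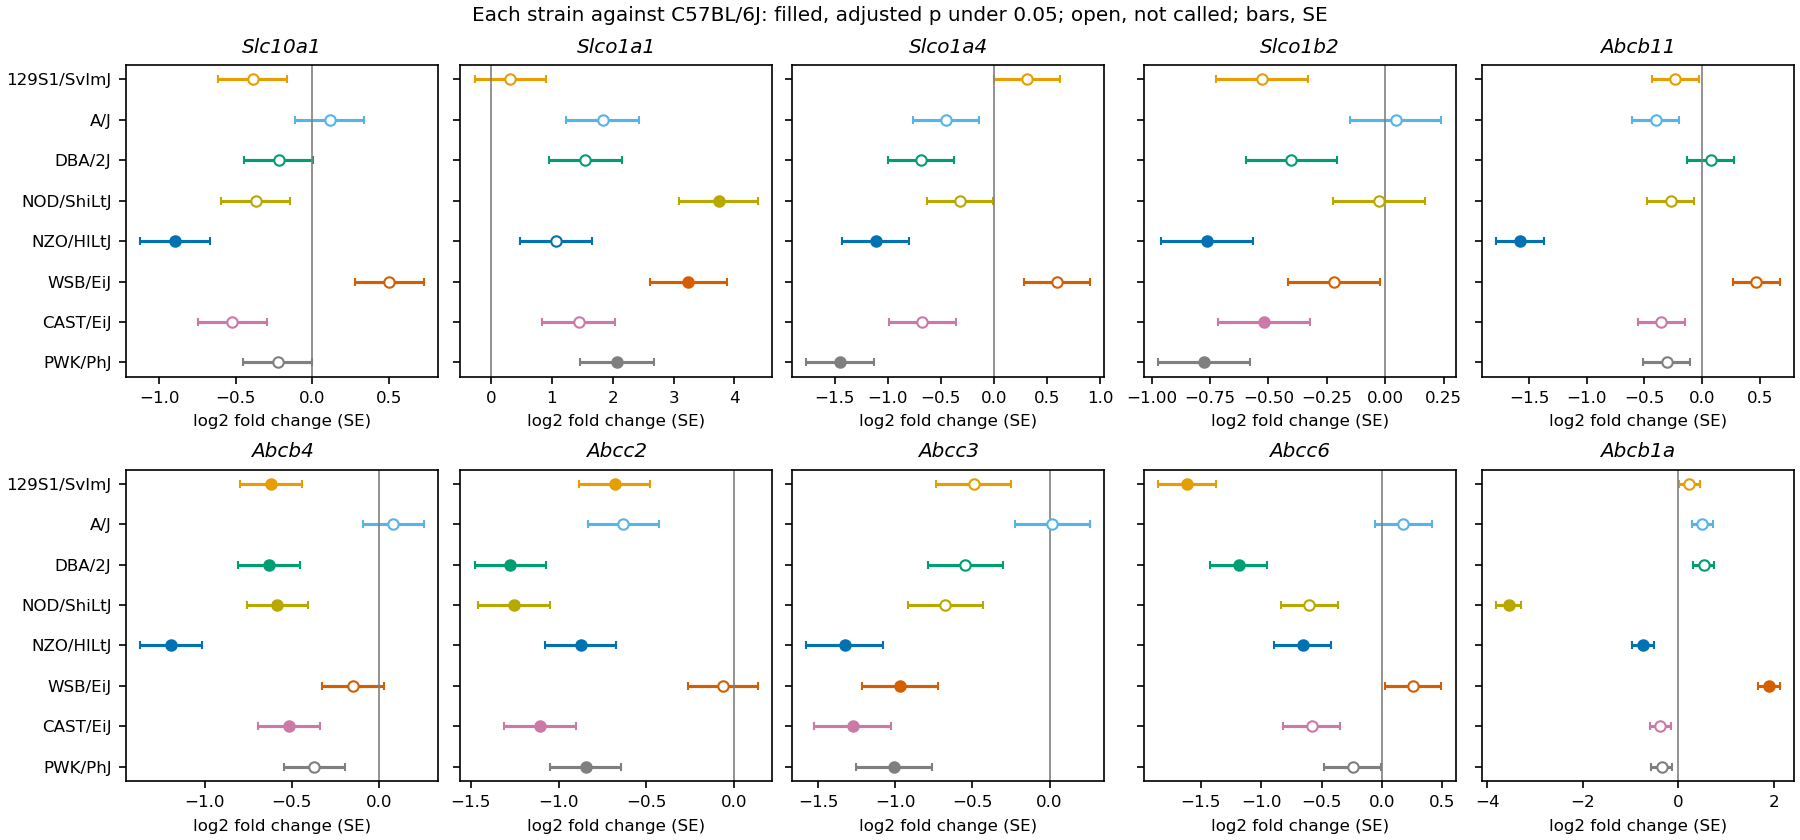
Log2 fold change of each transporter in 8 strains against C57BL/6J, with bars for 1 SE; filled symbols mark an edgeR adjusted p under 0.05 and open symbols the rest. Of the 80 values 27 are called lower and 4 higher, and 9 of the 10 in NZO/HlLtJ are called lower.

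The NZO/HlLtJ libraries, the lowest for many of these genes, also had the lowest sum of endothelial markers and a low sum of Kupffer cell markers, as given above. Their stellate cell sum was the lowest too, at 24.4 CPM against 37.2 in C57BL/6J. Their hepatocyte marker sum, at 111273 CPM, was below the 154197 of C57BL/6J, the 222979 of WSB/EiJ and the 261679 of A/J. It was above that of CAST/EiJ alone. Of its 6 markers, 2 (Apoa1 and Ttr) were called lower than in C57BL/6J by edgeR and 0 higher. Alb, the highest of the 6, made up 10.6 to 11.7% of unscaled counts in NZO/HlLtJ and 11.3 to 12.1% in C57BL/6J. The sums in CPM also carry the TMM factors given above. With both list means added as covariates, only Abcb11 at -1.17 (adjusted p = 0.000285) and Abcb4 at -0.79 (adjusted p = 0.0121) were still called in NZO/HlLtJ. Calls over all genes in this comparison fell as well, from 29.3% to 6.84%. The other 7 log2 fold changes became -0.37 (adjusted p = 0.358) for Slc10a1, -0.51 (adjusted p = 0.514) for Slco1a4, -0.44 (adjusted p = 0.28) for Slco1b2, -0.62 (adjusted p = 0.131) for Abcc2, -0.77 (adjusted p = 0.105) for Abcc3, -0.11 (adjusted p = 0.865) for Abcc6 and -0.13 (adjusted p = 0.829) for Abcb1a. Over the 8 comparisons, 15 of 31 calls were kept with these covariates and none changed direction. Over all genes, 129S1/SvImJ went from 20.9% called to 4.49%, CAST/EiJ from 38% to 18.9%, NOD/ShiLtJ from 15.9% to 8.71% and PWK/PhJ from 26.2% to 24.1%. The share went up from 7.84% to 11.9% for A/J, from 13.6% to 15.5% for WSB/EiJ and from 9.06% to 9.14% for DBA/2J. The fit also called 6 fold changes that had not been called: those of Slc10a1 and Abcb11 in WSB/EiJ, Abcb11 in PWK/PhJ and Abcb1a in DBA/2J and A/J, given above, and Slco1a1 in A/J at 2.12 (adjusted p = 0.0242). Outside NZO/HlLtJ the calls lost were those of Abcb4 in CAST/EiJ, DBA/2J, 129S1/SvImJ and NOD/ShiLtJ, of Abcc2 in 129S1/SvImJ, of Abcc3 in WSB/EiJ and CAST/EiJ, of Slco1b2 in CAST/EiJ and of Slco1a1 in PWK/PhJ. Their adjusted p then ran from 0.0566 for Abcc3 in CAST/EiJ to 0.66 for Abcb4 in 129S1/SvImJ. Marker levels differ between the strains themselves, so strain and marker level cannot be fully told apart here, and the part that other cells play in these differences was not tested.

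The transporters were also described by how their levels moved together over the 27 libraries, which share 9 strains and depth scaling. Of the 45 pairs, 41 had a positive Pearson correlation of log2 CPM, 19 were over 0.5 and the median was 0.40. The same figures were not computed for pairs of other genes. The highest were Slc10a1 with Abcb11 (0.80), Slc10a1 with Abcb4 (0.77) and Abcb4 with Abcc3 (0.70). Slco1a1 gave the lowest, at -0.27 with Abcb1a, -0.24 with Abcc3 and -0.20 with Abcc2. Among 6152 other protein-coding genes averaging at least 10 CPM, those most like Slc10a1 were Hgsnat (0.95) and Masp2 (0.94), and those most like Abcb4 were Slc27a2 (0.94) and Ccpg1 (0.92). Abcb1a was most like Cyp2a12 (0.94) and Sdc2 (0.92), Abcb11 like Pqlc1 (0.88) and Cyp17a1 (0.86), and Abcc6 like Abhd6 (0.89) and Saraf (0.87). For Abcc3 they were 9530068E07Rik (0.89) and Adcy6 (0.86), for Slco1b2 Ndfip1 (0.85) and Icmt (0.84), and for Abcc2 Slc19a2 (0.81) and Ubr3 (0.80). Slco1a4 had Tm4sf4 and Mtx3 (0.74 each), and Slco1a1 had the weakest likeness, with C1s2 (0.67) and Tmem150a (0.66). These genes were picked as the highest of all searched, and much of the likeness can lie between strain means. With each strain's mean taken out, the correlations ran from -0.09 for Slco1a1 with C1s2 to 0.93 for Slc10a1 with Masp2. They were 0.23 for Slco1a1 with Tmem150a and for Slco1a4 with Tm4sf4.

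Other transporters of the hepatocyte differed among the strains as well. Of 24 listed, 23 were tested and 21 called among the 9 strains, against 74.2% of all genes, with a median ratio of highest to lowest strain mean of 2.93 (2.27 over all genes). Against C57BL/6J, and to be read beside the shares of all genes given above for each strain, 13 were lower and 0 higher in NZO/HlLtJ, 11 lower and 2 higher in CAST/EiJ, 9 lower and 0 higher in NOD/ShiLtJ and 8 lower and 0 higher in DBA/2J. In PWK/PhJ 7 were lower and 0 higher, in 129S1/SvImJ 6 and 0, in WSB/EiJ 4 and 1, and in A/J 0 and 1. The widest range was that of Slc10a2, the sodium-dependent bile acid carrier of ileum and bile duct cells, with 18.8 ± 8.18 CPM in DBA/2J, 11.8 ± 3.23 in C57BL/6J and 0.141 ± 0.045 in CAST/EiJ, from 3 to 6 counts per library. In CAST/EiJ it was lower than in C57BL/6J (edgeR log2 fold change -6.36 ± 0.48, adjusted p = 2.28e-10). It is also on the bile duct list, whose genes Sox9 and Spp1 differed among the strains too, and the part of bile duct cells in this difference was not tested. Slc22a7, an organic anion carrier, ranged from 27.7 ± 3.56 CPM in 129S1/SvImJ to 176 ± 38.3 in CAST/EiJ, and Slc10a5, a relative of Slc10a1, was lower in CAST/EiJ (edgeR log2 fold change -2.43 ± 0.21, adjusted p = 1.72e-09). Slco2a1, a prostaglandin carrier, ranged from 46.7 ± 5.46 CPM in 129S1/SvImJ to 196 ± 49.4 in DBA/2J. Abcg8, a subunit of the canalicular sterol pump, ranged from 61.1 ± 13.2 CPM in NZO/HlLtJ to 208 ± 42.6 in A/J. Slc51b, a subunit of the basolateral bile acid exporter, was 0.415 ± 0.388 CPM in C57BL/6J and 3.45 ± 0.518 in WSB/EiJ, and its partner Slc51a did not pass the filter. Abcg2 ran from 32.4 CPM in DBA/2J to 51.2 in C57BL/6J and Abcc4 from 5.16 CPM in A/J to 12.8 in NOD/ShiLtJ, of which Abcc4 was not called (edgeR adjusted p = 0.0709).

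Of 24 regulators, 23 were tested and 20 called, with a median ratio of 1.87, again beside 74.2% and 2.27 for all genes. FXR, Nr1h4, ran from 37.6 CPM in A/J to 59.4 in 129S1/SvImJ (edgeR adjusted p = 0.0444), its target SHP, Nr0b2, from 22.6 CPM in CAST/EiJ to 47.9 in NOD/ShiLtJ (adjusted p = 0.0466) and PXR, Nr1i2, from 34.3 CPM in WSB/EiJ to 49.5 in CAST/EiJ (adjusted p = 0.0124). CAR, Nr1i3, was highest in C57BL/6J at 261 ± 50.6 CPM and lower in PWK/PhJ at 111 ± 28.2 (edgeR log2 fold change -1.23 ± 0.24, adjusted p = 0.000505) and NZO/HlLtJ at 114 ± 28.7 (edgeR log2 fold change -1.19 ± 0.24, adjusted p = 0.000982). Nfe2l2, the antioxidant regulator NRF2, was 33.7 ± 4.74 CPM in NZO/HlLtJ (edgeR log2 fold change -0.41 ± 0.15, adjusted p = 0.0368) and 61.6 ± 10.7 in WSB/EiJ (edgeR log2 fold change 0.46 ± 0.15, adjusted p = 0.0343). Hnf4a, a regulator of hepatocyte identity, was not called (adjusted p = 0.0524), and Ahr was lower in WSB/EiJ (edgeR log2 fold change -1.10 ± 0.21, adjusted p = 0.000445). The widest range among the regulators was that of Onecut1 (HNF6), with 47.9 ± 19.6 CPM in NZO/HlLtJ and 6.73 ± 4.22 in C57BL/6J. Cebpb ran from 8.71 CPM in DBA/2J to 45.3 in 129S1/SvImJ, Nr1h3 (LXR alpha) from 42.8 CPM in A/J to 113 in CAST/EiJ and Prlr, the prolactin receptor, from 251 CPM in CAST/EiJ to 648 in C57BL/6J.

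Of 17 genes for scaffolds, tight junctions and trafficking of canalicular proteins, 16 were called among the strains, with a median ratio of 1.67. The same measures were 74.2% and 2.27 for all genes. Msn (moesin), which blood vessel cells also express, had the same lowest and highest strain as the endothelial sums, with a mean of 4.64 ± 0.923 CPM in NZO/HlLtJ against 22.1 ± 12.5 in PWK/PhJ. The tight junction genes Cldn1 and Cldn2 ran from 86.8 CPM in CAST/EiJ to 211 in A/J and 65.4 CPM in 129S1/SvImJ to 147 in DBA/2J. Slc9a3r1, the scaffold of several canalicular pumps, ran from 62.4 CPM in A/J to 143 in CAST/EiJ, and Myo5b, a motor for apical traffic, from 28.5 CPM in CAST/EiJ to 53 in DBA/2J. Of 10 listed paralogs and cluster neighbours, 6 were tested and 5 called, again beside 74.2% of all genes. Among them, Slco1a6 averaged 1.13 CPM over all libraries, and Slco1a5 was too low to be tested.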

How the data were processed

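Polyadenylated RNA of 27 hepatocyte samples was made into libraries with a TruSeq RNA kit not stated to mark strand, per the labels' protocols. Estimated counts per Ensembl gene, made by the authors from the reads and not scaled to depth, were deposited as 1 table. Of the values, 14.7% were not whole. FastQC 0.11.5, DESeq2 and build GRCm38 (mm10) are named in the submitters' processing notes, with no role given. The aligner, the counting program and whether strain genomes were used are not given in the sources used here, and reads of strains far from the reference genome could have been counted less completely. Genes overlapping on opposite strands are then uncertain.

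Counts were rounded, which changed library totals by at most 0.000261%, and tested with edgeR 4.0.16 and limma 3.58.1 under R 4.3.3. After filterByExpr, 14482 of 43346 genes were kept. TMM factors ran from 0.722 to 1.226. A quasi-likelihood model on strain was fitted to all 27 libraries, giving 1 test over all strain coefficients and 8 tests of a strain against C57BL/6J, with Benjamini-Hochberg adjustment over all genes and a threshold of 0.05. CPM values are scaled to TMM-adjusted library sizes, and correlations and shares of variance use log2 CPM with a prior count of 2. Symbols and positions come from GENCODE M21 on GRCm38, which named 42462 of the gene identifiers, and exon length is the union of a gene's exons. Replicate counts differed by more than sampling noise in every within-strain pair (chi-square per degree of freedom 24.4 to 135), so all 27 libraries were counted singly. The code was also run on simulated counts, with changes set in NZO/HlLtJ for a small set of genes. Counts were drawn with the main fit's trend of dispersion over expression level, which leaves out each gene's own spread. Of all changed genes it recovered 16.4% at 1.5-fold, 44.8% at 2-fold and 78.8% at 4-fold. Among those averaging at least 10 CPM, it recovered 27.6% of 29 1.5-fold, 82.1% of 28 2-fold and 100% of 26 4-fold changes. These rates check the code and do not give the power for genes of wide spread, such as Slco1a1. P-values measure the spread between these libraries, which the labels call biological replicates, and the floor of 3 counts covers counting error only.

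All 10 transporters were described in every strain, with values in every library for those whose strain means differed at least 2-fold. The most similar genes were the 2 with the highest correlation among those averaging at least 10 CPM, and the other list genes named were a set chosen by name plus the 5 widest called genes per list averaging at least 5 CPM; 1 gene of these is not reported here. Marker lists are given as sums. The members and lists were chosen with earlier results of these data known. Alternatives were median-of-ratios scaling, DESeq2 1.42.0, a mean of at least 10 counts or no filter, a replicate block, covariates from the mean log2 CPM of the Kupffer cell and endothelial lists, a fit on 2 strains alone, and leaving out each library.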

Additional observations from a re-analysis of the deposited data

How the results depend on the processing

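All 10 transporters were called among the 9 strains in the 6 alternatives that test all strains together and in the 27 fits that left out 1 library; the fits on 2 strains alone hold no such test. Of the 31 called fold changes against C57BL/6J, 31 were kept with median-of-ratios scaling, 31 with DESeq2, 31 with a mean of at least 10 counts, 29 with no filter, 27 in fits on the 2 strains alone and 15 with Kupffer cell and endothelial marker levels as covariates; none changed direction. With no filter the calls of Slco1b2 (adjusted p = 0.088) and Abcb4 (0.0544) in CAST/EiJ were lost, and in the 2-strain fits those of Abcb4 in DBA/2J (0.176), Abcc6 in NZO/HlLtJ (0.0534), Slco1b2 in CAST/EiJ (0.0567) and Slco1a1 in PWK/PhJ (0.0699). No filter gained Slco1a1 in A/J (1.84, adjusted p = 0.00496), DBA/2J (1.56, 0.0205) and CAST/EiJ (1.46, 0.0109). The 2-strain fits gained Abcc3 in NOD/ShiLtJ (-0.68, adjusted p = 0.0243). Besides the gains given above, DESeq2 called Abcc3 in NOD/ShiLtJ (-0.69, adjusted p = 0.0347) and Abcc6 in CAST/EiJ (-0.58, 0.0446). Over the leave-one-out fits 800 of 837 were kept. Most of these fits left out a library of neither strain compared, which changes a comparison little. The share kept therefore says little about dependence on single libraries. The 37 losses are given with each gene above. With the covariates the number called was 1 in 129S1/SvImJ, 2 in A/J, 2 in NZO/HlLtJ and 1 in CAST/EiJ, and in A/J it was 2 with DESeq2 and 1 with no filter. Shares of all genes with the covariates, and with DESeq2 in A/J, are given above. With no filter 1140 of all genes were called in A/J. The cause was not tested. Leaving out 1 library gave 2 to 5 in 129S1/SvImJ (5 without C57BL/6J replicate 1), 0 to 1 in A/J, 2 to 3 in DBA/2J, 3 to 6 in NOD/ShiLtJ, 6 to 9 in NZO/HlLtJ, 2 to 3 in WSB/EiJ, 2 to 6 in CAST/EiJ (2 without CAST/EiJ replicate 1) and 4 to 6 in PWK/PhJ. Over all genes these fits gave 1492 to 4279 calls in 129S1/SvImJ (4279 without C57BL/6J replicate 1), 903 to 1227 in A/J and 995 to 1455 in DBA/2J. They gave 1278 to 2940 in NOD/ShiLtJ, 2288 to 5112 in NZO/HlLtJ and 1468 to 2135 in WSB/EiJ. In CAST/EiJ they gave 4118 to 5925 (4365 without CAST/EiJ replicate 1), and in PWK/PhJ 2812 to 4100. For same-numbered libraries of different strains, the median correlation of their deviations was 0.0232 over 76 pairs, against -0.00458 over 248 pairs of different numbers. Of these pairs, 17 and 44 were over 0.1, and the highest were 0.275 and 0.338. Whether libraries of 1 number share a batch was not tested. With the replicate block 10 transporters were called among the strains and 28 fold changes were kept; those lost were Slco1b2 in CAST/EiJ (-0.42, adjusted p = 0.168), Abcb4 in CAST/EiJ (-0.41, 0.148) and Abcc6 in NZO/HlLtJ (-0.71, 0.0549), and those gained were Slco1b2 in 129S1/SvImJ (-0.63, 0.039) and Slco1a1 in CAST/EiJ (1.83, 0.0378). The numbers called were then 4 in 129S1/SvImJ, 0 in A/J, 3 in DBA/2J, 4 in NOD/ShiLtJ, 8 in NZO/HlLtJ, 3 in WSB/EiJ, 3 in CAST/EiJ and 5 in PWK/PhJ. Over all genes, calls with the block went from 3026 to 2652 in 129S1/SvImJ, 1135 to 891 in A/J and 1312 to 1171 in DBA/2J. They went from 2302 to 1933 in NOD/ShiLtJ, 4249 to 3938 in NZO/HlLtJ and 1976 to 1653 in WSB/EiJ. In CAST/EiJ they went from 5506 to 4125 and in PWK/PhJ from 3797 to 3327. Depth limits values of genes with few counts, such as Abcb1b with 0 to 7 counts per library in C57BL/6J, A/J and NOD/ShiLtJ.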
